A study of Mus musculus with 13 samples.

Results

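The GABA-A receptor subunit genes Gabra2, Gabra3, Gabra4, Gabra5, Gabrb1, Gabrb2 and Gabrd were followed in RNA of mouse brain. They were taken by symbol, each matched to 1 gene ID, and are 7 of the 37636 genes in the table. All 7 had a mean of at least 1 FPKM over the libraries and were tested. FPKM scales fragment counts by gene length and by the mapped total of the library, so levels of different genes are compared here per length.

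Brain RNA of male Balb/c mice, aged 6 to 8 weeks, was sequenced in 13 libraries. The region of the brain is not named in the labels. Con is the normal condition (4 libraries), Mod is an altitude of 8000 m held for 24 h (5 libraries), and the 6-OHG group had that exposure together with 6-OHG (4 libraries), a compound known here only by its code and given at a dose that the labels leave out. No group analysed here received 6-OHG without the exposure, so an effect of the compound at normal altitude was not measured. Libraries are named by group and replicate number, as in Con 4. The labels do not tie replicates to separate animals, so the p-values measure the spread between these libraries, which may be technical.

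GABA-A receptors are chloride channels opened by GABA, the main inhibitory transmitter of the adult brain. Each channel is assembled from several subunits around a central pore, most often alpha and beta subunits with a gamma or a delta subunit. GABA binds at the interface between an alpha and a beta subunit, and benzodiazepines bind between an alpha and a gamma subunit. Receptors with a gamma subunit are typical of synapses, where they carry brief inhibitory currents. Receptors that combine the Gabra4 and Gabrd products lie mostly outside synapses, respond to low ambient GABA, and are known in striatum, thalamus, cortex and dentate gyrus.

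Most of the genes lie in clusters with other subunit genes. On GRCm38, Gabra2 (chr5:70957597-71095849, minus strand), Gabra4 (chr5:71569749-71658308, minus) and Gabrb1 (chr5:71658113-72149037, plus) share a cluster with Gabrg1. Gabrb2 (chr11:42419757-42629028, plus) lies near Gabra6, and Gabra5 (chr7:57407672-57510059, minus) lies near Gabrg3. Gabra3 (chrX:72432681-72656848, minus) sits between Gabre and Gabrq, and Gabrd (chr4:155384980-155398112, minus) stands away from the other clusters. The gene bodies of Gabra4 and Gabrb1 overlap head to head by 196 bases, of which 46 are exonic in both, and exons of Gabra5 overlap those of the antisense gene Gm9962 by 148 bases. The strand setting of the counting is not given, so fragments from these shared bases cannot be told apart.

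The 2 genes whose calls the results turn on are Gabrb1 and Gabrb2. For that reason, sequence before transcript starts of both is shown. Only their windows with a motif searched for below and no exon bases of a subunit gene are shown. Left out are a Gabrb2 window without a motif (chr11:42420524-42420773) and a Gabrb1 window upstream of the gene body (chr5:71657671-71657920). That Gabrb1 window held ACGTG 81 bases before its start, and 197 of its bases lie in subunit gene exons. The Gabrb1 run shown lies inside the gene body, and so do both Gabrb2 runs shown and the Gabrb2 window left out. Each run is 250 bases ending just before a transcript start of RefSeq (GRCm38.p6, plus strand), written 5′ to 3′. Capitals mark TATAAA in the first and CACGT, which is ACGTG on the other strand and the core of the site bound by hypoxia-inducible factors, in the others.
Gabrb2, chr11:42420190-42420439: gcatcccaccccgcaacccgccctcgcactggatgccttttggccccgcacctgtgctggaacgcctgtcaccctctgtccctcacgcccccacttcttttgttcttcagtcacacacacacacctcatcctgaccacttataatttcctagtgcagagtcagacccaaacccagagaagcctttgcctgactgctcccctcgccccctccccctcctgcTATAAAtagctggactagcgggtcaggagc
Gabrb2, chr11:42420951-42421200: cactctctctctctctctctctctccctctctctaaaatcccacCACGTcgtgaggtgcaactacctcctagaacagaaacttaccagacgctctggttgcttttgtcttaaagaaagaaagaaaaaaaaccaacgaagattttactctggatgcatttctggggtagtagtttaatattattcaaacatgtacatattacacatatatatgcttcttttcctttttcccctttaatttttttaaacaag
Gabrb1, chr5:71699682-71699931: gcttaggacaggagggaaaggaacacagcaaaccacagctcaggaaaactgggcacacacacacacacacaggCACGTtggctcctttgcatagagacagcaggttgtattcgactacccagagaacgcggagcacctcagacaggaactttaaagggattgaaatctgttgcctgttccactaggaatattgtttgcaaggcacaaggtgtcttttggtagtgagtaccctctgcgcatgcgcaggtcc

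TATAAA began 30 bases before the first of these Gabrb2 starts. The ACGTG core lay 206 bases before the other Gabrb2 start and 177 bases before this Gabrb1 start. Both strands were searched for ACGTG, for the TATA box letters TATAAA and for the cyclic AMP response element TGACGTCA. Of the 10 windows found for 6 of the 7 genes, 3 held the ACGTG core, 3 held the TATA box (1 of Gabrb2 and 2 overlapping windows of Gabra3) and 0 held the cyclic AMP element. Of 32851 promoter windows of the same length, 16.6% held ACGTG, 12.4% held TATAAA and 1.55% held TGACGTCA. The windows differed in composition, with 58.8% G and C and 8 CpG in the first Gabrb2 run, 36.8% and 4 CpG in the other, and 50.8% and 6 CpG in the Gabrb1 run. Of the Gabrb1 run, 81 bases lie in annotated exons, none of them of a subunit gene. A match of these letters is a description of the window, and binding was not measured. Gabrd had no window.

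Across the series, the FPKM columns summed to between 268208 and 312908, with 20.6% to 28.7% of the sum in mitochondrial genes, and the number of reads per library is not given. All 10 neuron markers were present in every group. Their mean log2(FPKM + 1) per library was 6.51 to 6.63 in Con, 6.33 to 6.41 in Mod and 6.36 to 6.54 in 6-OHG, so that all Mod libraries lay below all Con libraries. The mean log2 level of 10 striatum markers ran from 4.27 to 5.10 in Con, from 3.19 to 5.35 in Mod and from 2.60 to 4.99 in 6-OHG, and none of the 10 was at 0. Of 7 hypothalamus markers tested, 4 rose in Mod against Con and 4 fell in 6-OHG against Mod, and of 8 endothelial markers 6 rose and 1 fell both in Mod and in 6-OHG against Con. The mean log2 level of 8 choroid plexus markers was 2.58 to 3.04 in Con, 1.71 to 2.29 in Mod and 1.14 to 2.59 in 6-OHG, with no overlap between Con and Mod, and 1 of the 4 tested fell in Mod against Con. By the test given below, 14% of all genes tested rose and 9.81% fell in Mod against Con. The shares were 6.98% and 8.35% in 6-OHG against Mod, and 16.3% and 14.4% in 6-OHG against Con. In 6-OHG against Con, 5 of 8 microglia markers, 2 of 8 oligodendrocyte markers and 2 of 8 astrocyte markers fell. None of these 3 lists had a member that rose. The part of these shifts in the results below was not tested, other than by the striatum term given with Gabrd. In bulk RNA, fewer cells of a type and less RNA per cell cannot be told apart, and this holds for every level below.

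Among the 7 genes, Gabra3 had the highest mean in each group, at 31.6 ± 2.69 FPKM in Con (SD, n = 4), 28.0 ± 2.14 in Mod (n = 5) and 30.0 ± 2.43 in 6-OHG (n = 4). Its range did not meet that of Gabra4, the next gene, in any group. Gabrb1 was the lowest in each group, at 8.57 ± 0.900, 5.56 ± 0.298 and 6.65 ± 0.922 FPKM, and its range stood apart from that of the gene above it. The genes between them, from Gabra4 to Gabra2 or Gabrb2, had ranges that overlapped with their neighbours in the order of means. The place of Gabrb2 in this order moved, from the fifth in Con to the sixth in Mod and the third in 6-OHG.

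**Figure D1:**
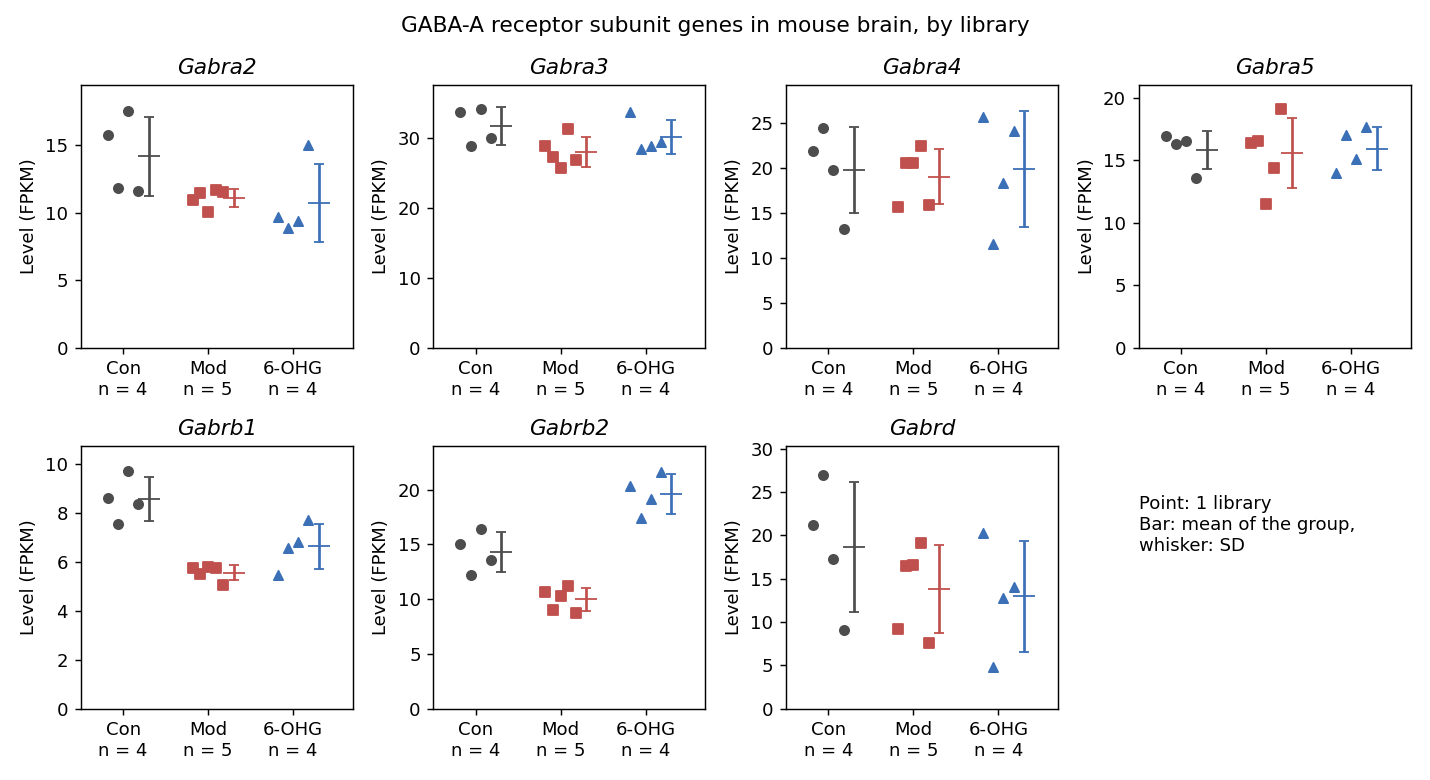
Level in FPKM (vertical axes, from 0, scaled separately) of the 7 subunit genes in each library, by group (horizontal axes), with the group mean as a bar and the SD as a whisker. For Gabrb2 the 5 Mod libraries (8.70 to 11.2) lie below the 4 Con libraries (12.2 to 16.5), and the 4 libraries with 6-OHG (17.4 to 21.6) above both.

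The comparison of Mod with Con asks what the altitude exposure changed. The transcripts of both beta subunit genes on the list, Gabrb1 and Gabrb2, fell, and none of the alpha genes and not Gabrd passed the test. Calls of single genes do not compare beta with other subunits, and such a difference was not tested. The test was limma's moderated linear model on log2(FPKM + 1), with p-values adjusted over the 13905 genes tested and a call at an adjusted p under 0.05. Of the 7 genes, 2 were called, both lower, where 23.8% of all genes tested were called, 9.81% as lower and 14% as higher. Here and in the comparisons below, the count among the 7 genes was not tested against the share over all genes. Groups did not overlap for 22.4% of all genes. The balance of directions over all genes moved with the scaling, from 1940 higher and 1364 lower here to 1095 and 1603 with FPKM rescaled to equal sums.

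Gabrb1 encodes a beta subunit, a class that contributes to the GABA site and without which receptors do not reach the cell surface efficiently. It stood at 8.61, 7.55, 9.73 and 8.37 FPKM in Con 1 to 4 and at 5.74, 5.51, 5.78, 5.73 and 5.07 in Mod 1 to 5. Every Mod library was below every Con library, and the Mod libraries lay closer together than those of Con. The difference was -0.54 on the log2(FPKM + 1) scale (SE 0.085, adjusted p = 0.000797), a Con mean 1.54 times that of Mod. On this scale the fold of low values is understated.

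Gabrb2 encodes a beta subunit found in many synaptic receptors. Its levels were 15.0, 12.2, 16.5 and 13.6 FPKM in Con and 10.6, 9.03, 10.3, 11.2 and 8.70 in Mod. Again all 5 Mod libraries lay below the lowest Con library. The log2 difference was -0.48 (SE 0.095, adjusted p = 0.00332), and the Con mean was 1.44 times the Mod mean. Both calls held in all 27 other settings of the analysis, with values from -0.61 to -0.46 for Gabrb1 and from -0.55 to -0.41 for Gabrb2. Neuron markers were lower in the same libraries: 2 of the 10 fell and 0 rose in Mod against Con, where 9.81% of all genes fell and 14% rose. Of these markers 4 had an unadjusted p under 0.05, and the median of the 10 was -0.11, beside 0.014 over all genes. Their part in the Gabrb1 and Gabrb2 differences was not tested.

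Gabra2 encodes an alpha subunit found at synapses on the start of the axon and in limbic regions. It had 15.7, 11.8, 17.5 and 11.6 FPKM in Con against 10.9, 11.5, 10.0, 11.6 and 11.5 in Mod. Con 2 and Con 4 were level with the Mod libraries, and Con 1 and Con 3 were higher. The log2 difference of -0.31 (95% interval -0.62 to 0.01) had an adjusted p of 0.148. Gabra3, whose product is known in the reticular thalamus and in monoamine neurons, differed by -0.17 (adjusted p = 0.118). Its 95% interval was -0.33 to -0.0089, with an unadjusted p of 0.0401 in limma. Fitted with sample weights, which count libraries far from their group for less, Gabra2 and Gabra3 were called too (-0.41, adjusted p = 0.0299, and -0.22, adjusted p = 0.0238), so that 4 of the 7 genes were lower.

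Gabra5, the alpha subunit of extrasynaptic receptors of the hippocampus, ran from 13.6 to 16.9 FPKM in Con and from 11.5 to 19.1 in Mod, a log2 difference of -0.04 with an interval of -0.30 to 0.23. Gabra4 had 19.8 ± 4.76 and 19.0 ± 3.07, a difference of -0.04 with a wider interval of -0.51 to 0.43. Gabrd, the delta subunit gene, had 18.6 ± 7.51 and 13.8 ± 5.04, a difference of -0.39 with an interval of -1.23 to 0.45 (adjusted p = 0.506). For Gabra2, Gabra4 and Gabrd the spread within groups was large enough that a change of the size seen for Gabrb2 lies inside the interval.

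**Figure D2:**
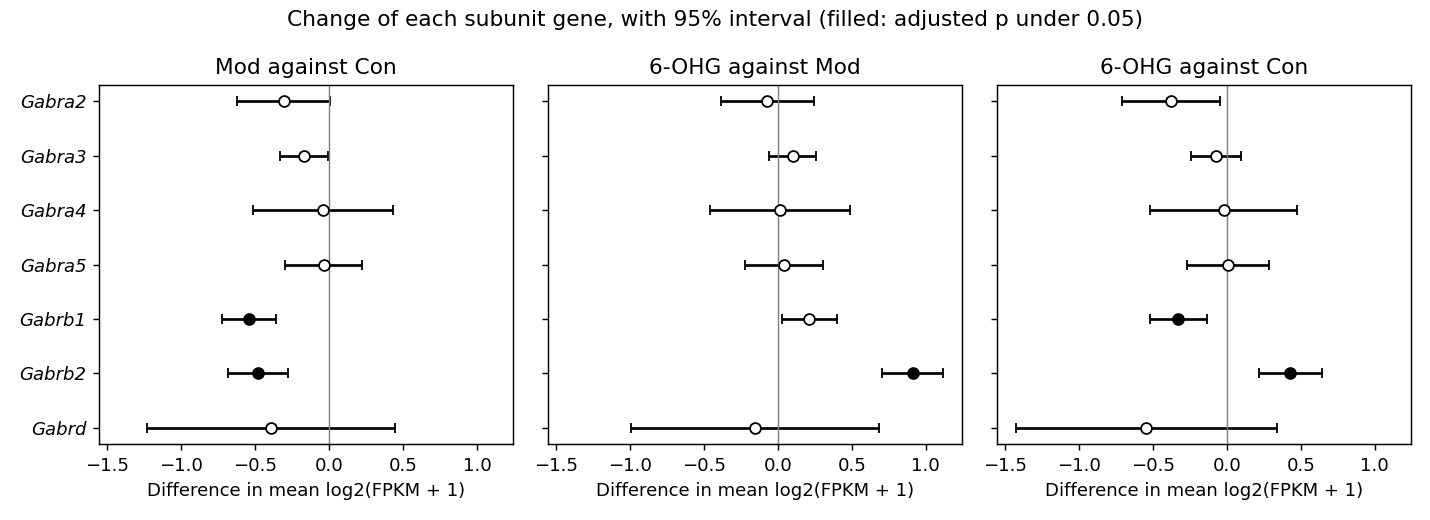
Difference in mean log2(FPKM + 1) (horizontal axes) of each subunit gene in the 3 comparisons, as points with 95% intervals from limma, filled where the adjusted p was under 0.05. Gabrb1 and Gabrb2 are filled at -0.54 and -0.48 in Mod against Con, Gabrb2 alone at 0.91 in 6-OHG against Mod, and both, on opposite sides of 0, in 6-OHG against Con.

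The comparison of 6-OHG with Mod asks what the compound changed in mice under the same exposure. Here 1 of the 7 genes was called, Gabrb2, and it was higher. In this comparison 15.3% of all genes tested were called, 6.98% as higher and 8.35% as lower, and groups did not overlap for 15.9%. Over all genes 970 rose and 1161 fell, against 1385 and 398 with equal sums and 1307 and 965 with quantile normalization. The Mod libraries are the same ones as in the comparison above, so the 2 sets of differences are not independent.

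Gabrb2 had 20.4, 17.4, 19.1 and 21.6 FPKM in the 6-OHG libraries, against 8.70 to 11.2 in Mod. The lowest library with 6-OHG was above the highest Mod library, with no value between 11.2 and 17.4. Its log2 difference was 0.91 (SE 0.095, 95% interval 0.71 to 1.12, adjusted p = 0.000837), with a mean 1.97 times that of Mod and the third smallest p of the 13905 genes. The call held in all 27 other settings, with differences from 0.77 to 1.01. Of the 10 neuron markers, 1 rose and 0 fell in this comparison, where 6.98% of all genes rose and 8.35% fell. The median of these markers was 0.11 beside -0.021 over all genes, and their part in the Gabrb2 difference was not tested.

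Gabrb1 had 5.47, 6.59, 6.83 and 7.71 FPKM with 6-OHG. Replicate 1 lay inside the Mod range of 5.07 to 5.78, and the other 3 libraries lay above it. The log2 difference was 0.21 (95% interval 0.03 to 0.40, adjusted p = 0.108). Without 6-OHG 1 it was 0.29 (adjusted p = 0.0338) and Gabrb1 was called as well.

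Exon length is set beside these values because changes moved with it over all genes in this comparison. The median log2 change was -0.18 for the 2930 genes of up to 2 kb of exon, 0.05 for the 1730 of 6 to 8 kb and 0.12 for the 2319 over 8 kb. Gabrb2 has 6360 bases of exon and Gabrb1 has 13838, against a median of 4102.5 over genes tested. With the trend on length and GC content removed from every library, the Gabrb2 difference was 0.82 (adjusted p = 0.00129) and the Gabrb1 difference was 0.03 (adjusted p = 0.846).

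None of the alpha genes and not Gabrd passed in 6-OHG against Mod. Gabra2 had 9.66, 8.87, 9.41 and 15.0 FPKM with 6-OHG, 3 libraries below the Mod range and 1 above it, and a log2 difference of -0.07 (adjusted p = 0.786). Gabra3 differed by 0.10 (interval -0.06 to 0.26), Gabra5 by 0.04 (-0.22 to 0.31) and Gabra4 by 0.02 (-0.46 to 0.49). Gabrd had 20.3, 4.77, 12.7 and 14.0 FPKM with 6-OHG, which holds the whole Mod range of 7.62 to 19.1, and differed by -0.15 (interval -0.99 to 0.68).

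The comparison of 6-OHG with Con sets exposed mice given the compound beside those of the normal condition, and shares its libraries with both comparisons above. Of the 7 genes, 2 were called, Gabrb2 as higher and Gabrb1 as lower, where 30.7% of all genes were called, 16.3% as higher and 14.4% as lower, and groups did not overlap for 28.1%. For Gabrb2 every library with 6-OHG (17.4 to 21.6 FPKM) was above every Con library (12.2 to 16.5), with a log2 difference of 0.43 (SE 0.0999, adjusted p = 0.00638) and a mean 1.37 times that of Con. For Gabrb1 the highest 6-OHG library (7.71) was just above the lowest Con library (7.55), and the difference was -0.33 (SE 0.090, adjusted p = 0.0155). The Gabrb2 call held in all 27 other settings. The Gabrb1 call held in 25 and was lost with equal column sums (-0.30, adjusted p = 0.0523) and in a fit of these 2 groups alone (adjusted p = 0.0522).

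Gabra2 differed from Con by -0.38 (interval -0.71 to -0.05, adjusted p = 0.0775). Its call turned on single libraries: without 6-OHG 4, the high one, it was -0.54 (adjusted p = 0.00776), and without Con 4 it was -0.46 (adjusted p = 0.0469). With the trend on length and GC content removed it was -0.49 (adjusted p = 0.0202). Gabrd differed by -0.54 with an interval from -1.43 to 0.34 (adjusted p = 0.335), and Gabra3, Gabra4 and Gabra5 differed by -0.07, -0.02 and 0.01.

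The ratio of Gabrb2 to Gabrb1 FPKM within a library does not change when all values of that library are multiplied by 1 factor. Quantile normalization can change it, and so can the trend on exon length, which is 6360 bases for Gabrb2 and 13838 for Gabrb1. The ratio was 1.75, 1.62, 1.69 and 1.63 in Con, and between 1.64 and 1.96 in Mod. With 6-OHG it was 3.73, 2.64, 2.80 and 2.80. Con and Mod overlapped in this ratio, and all 4 libraries with 6-OHG were above both groups. The highest ratio, in 6-OHG 1, came from the library with the lowest Gabrb1 level of its group.

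**Figure D3:**
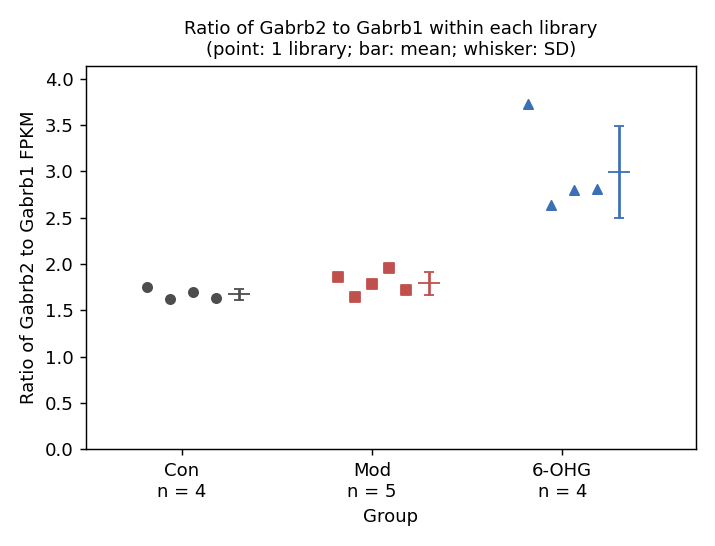
Ratio of Gabrb2 to Gabrb1 FPKM (vertical axis, from 0, no unit) in each library, by group (horizontal axis), with the group mean as a bar and the SD as a whisker. The 4 libraries with 6-OHG (2.64 to 3.73) lie above all Con (1.62 to 1.75) and Mod (1.64 to 1.96) libraries.

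Gabrd and Gabra4 varied widely between libraries of one group. The coefficient of variation of Gabrd was 40.3% in Con, 36.5% in Mod and 49.2% in 6-OHG, and that of Gabra4 was 24.1%, 16.2% and 32.3%, against 8.52%, 7.64% and 8.09% for Gabra3. Gabrd had 21.1, 27.0, 17.3 and 9.08 FPKM in Con and 9.24, 16.4, 16.6, 19.1 and 7.62 in Mod. Gabra4 had 21.8, 24.4, 19.7 and 13.2 FPKM in Con, 15.7, 20.5, 20.5, 22.4 and 15.8 in Mod, and 25.7, 11.5, 18.2 and 24.0 in 6-OHG. The same 4 libraries, Con 4, Mod 1, Mod 5 and 6-OHG 2, were the lowest of the 13 for both genes.

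Those 4 libraries were also among the 5 with the lowest striatum marker means: 4.27 in Con 4, 3.64 in Mod 1, 3.19 in Mod 5 and 2.60 in 6-OHG 2. The remaining library of these 5 was 6-OHG 3, at 3.77. The other 8 libraries had striatum means of 4.75 to 5.35. With the striatum marker mean as a term in the model, a setting added after the data were seen, Gabrd differed by -0.18 between Mod and Con (in place of -0.39), by 0.08 between 6-OHG and Mod (-0.15) and by -0.11 between 6-OHG and Con (-0.54), each short of the threshold. In that fit Gabrb1 differed by -0.53 (adjusted p = 0.00102) and Gabrb2 by -0.45 (adjusted p = 0.00247) in Mod against Con, and Gabrb2 by 0.94 (adjusted p = 0.000281) in 6-OHG against Mod. Leaving out Con 4 and 6-OHG 2 together, also added after the data were seen, gave -0.55, -0.50 and 0.96 for the same 3 differences, all called.

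**Figure D4:**
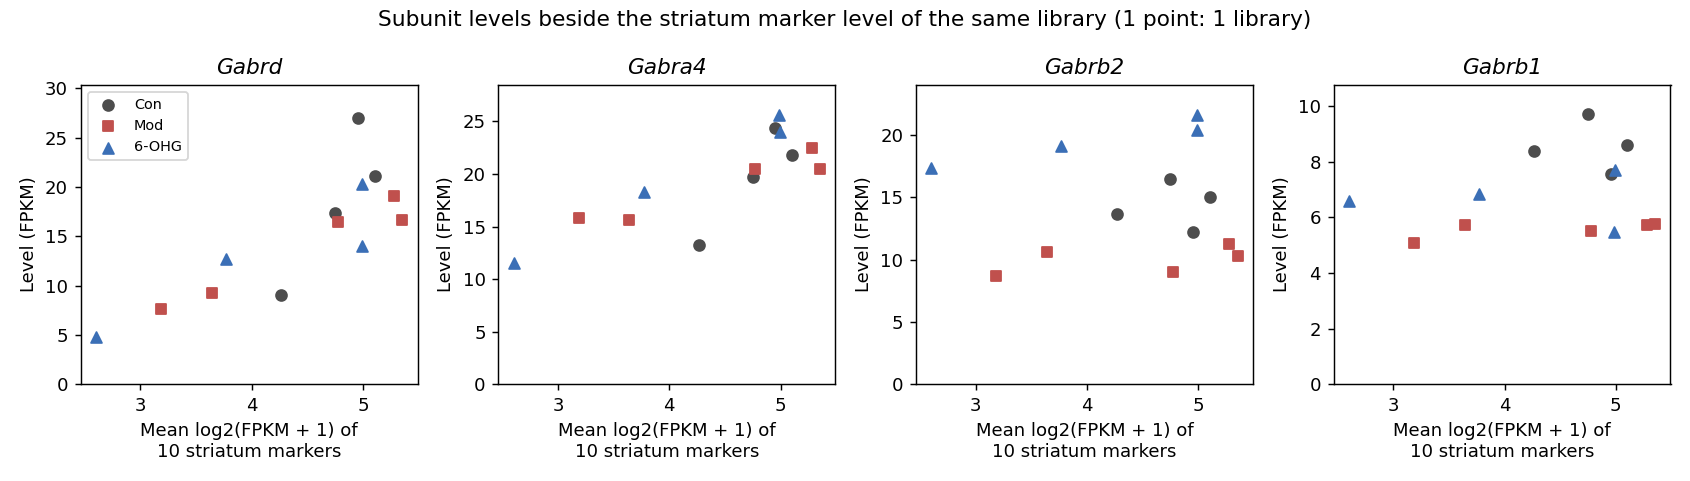
Level in FPKM (vertical axes, from 0) of Gabrd, Gabra4, Gabrb2 and Gabrb1 in each library against the mean log2(FPKM + 1) of 10 striatum markers in that library (horizontal axes), with symbols by group. The library with the lowest marker mean (2.60, 6-OHG 2) has the lowest Gabrd (4.77) and Gabra4 (11.5), while its Gabrb2 (17.4) lies above all Con and Mod libraries.

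Genes with the most similar pattern over the 13 libraries were found by the root mean square difference between standardized log2 profiles. A value of 0 is the same shape, whatever the size of the change. The likeness is a description of these libraries, which share their tissue make-up. Gabrd had the closest match of all, Ngef, a guanine nucleotide exchange factor of neurons, at 0.125, followed by Prkcz at 0.199 and Kcnh4 at 0.204. Prkcz, an atypical protein kinase C gene, is also a neighbour of Gabrd, with a gap of 23.6 kb between the gene bodies. Gabra4 was nearest to Ano3 (0.247), Arpp19 (0.259), a cyclic AMP regulated phosphoprotein gene, and Baiap2 (0.294). Gabrd and Gabra4 were the closest pair within the 7, at 0.413.

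For Gabrb2 the nearest genes were Pafah1b1 (0.232), a dynein regulator in migrating neurons, Wdr7 (0.234) and Uprt (0.242). Their log2 differences in 6-OHG against Mod were 0.33, 0.32 and 0.67, where that of Gabrb2 was 0.91. For Gabrb1 the nearest genes were Fem1b (0.250) and Uba6 (0.259), which act in ubiquitin transfer, and Cyp26b1 (0.298), which breaks down retinoic acid. The nearest gene to Gabra2 was Fam208a (0.441) and that to Gabra3 was Fbxo25 (0.459). Gabra5 had no gene nearer than Fgf10 (0.609), and its largest difference within the 7 was from Gabrd (1.59).

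Another 9 GABA-A subunit genes were read beside these 7. Of them 3 were tested (Gabrg1, Gabrg3 and Gabrq), and limma called 0 in each of the 3 comparisons, with 0 at an unadjusted p under 0.05. Over all genes tested, 23.8% were called in Mod against Con, 15.3% in 6-OHG against Mod and 30.7% in 6-OHG against Con. Gabrg1, a gamma subunit gene, had 3.67 ± 0.898 FPKM in Con (SD, n = 4), 3.84 ± 0.677 in Mod (n = 5) and 3.40 ± 0.937 in 6-OHG (n = 4). Gabrg3, another gamma subunit gene, had 2.59 ± 0.608, 2.40 ± 0.451 and 2.41 ± 0.353, and Gabrq, the theta subunit gene, had 1.37 ± 1.28, 1.41 ± 0.569 and 0.959 ± 1.06. The groups overlapped for each of the 3. The median difference of the 7 genes followed here was -0.31 between Mod and Con and 0.043 between 6-OHG and Mod, beside 0.014 and -0.021 over all genes tested.

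Among those below the filter, Gabrp was listed at 0 in every library. Gabrr2, a rho subunit gene, had a mean of 0.154 FPKM in Con (0.109 to 0.265), 1.33 in Mod (0.661 to 2.04) and 1.24 in 6-OHG (0.469 to 1.96). All Con libraries lay below all libraries of the exposed groups for Gabrr2, a gene singled out after its values were seen and not tested. Gabra6, the alpha subunit of cerebellar granule cells, had group means of 0.113, 0.242 and 0.0465 FPKM.

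Of 18 tested genes that anchor GABA-A receptors or move them to the membrane, 0 rose and 3 fell in Mod against Con: Clptm1, which holds subunits in the endoplasmic reticulum (-0.17, adjusted p = 0.0309), Ubqln1, which slows their degradation (-0.18, adjusted p = 0.0276), and Rdx, the radixin gene, whose product holds Gabra5-containing receptors to actin (-0.32, adjusted p = 0.0304). These calls held in 19, 20 and 20 of 27 other settings. In this comparison 14% of all genes tested rose and 9.81% fell. The median of the 18 was -0.053, beside 0.014 over all genes tested.

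In 6-OHG against Mod, 1 of the 18 rose and 1 fell, where 6.98% of all genes tested rose and 8.35% fell. Gabarap, a receptor-associated protein of the autophagy family, had 48.6 ± 2.54 FPKM in Mod and 40.2 ± 1.13 in 6-OHG, with no overlap and a difference of -0.27 (adjusted p = 0.00564). The call held in 24 of 27 other settings. It was lost with equal sums (-0.17, adjusted p = 0.134) and with the trend on length and GC content removed (-0.14, adjusted p = 0.0688). With that trend removed and the replicate block added it was lost too (-0.14, adjusted p = 0.206). Arfgef2, an exchange factor of the trafficking route, rose by 0.22 (adjusted p = 0.0455) and held in 10 of 27 settings. Against Con, Gabarap was lower by a log2 difference of -0.37 (adjusted p = 0.00039) in the main analysis and was called in all 27 other settings, and the kinesin adaptor genes Trak1 (0.28, adjusted p = 0.0283) and Trak2 (0.30, adjusted p = 0.0287) rose, held in 19 and 17 of 27. Against Con, 16.3% of all genes tested rose and 14.4% fell. The medians of the 18 were 0.093 against Mod, beside -0.021 over all genes, and -0.0075 against Con, beside 0.0034.

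Genes for making, loading, taking up and breaking down GABA did not pass the test between Con and Mod or between Mod and 6-OHG (limma called 0 of 8 in each, and 0 had an unadjusted p under 0.05). In 6-OHG against Con 1 of the 8 fell, Slc32a1, the vesicular GABA transporter, from 30.5 ± 5.46 to 20.6 ± 4.32 FPKM (-0.55, adjusted p = 0.0452), a call held in 11 of 27 settings. The mean log2 level of 10 GABAergic interneuron markers was 3.74 to 4.19 in Con, 3.80 to 3.90 in Mod and 3.51 to 3.77 in 6-OHG. In 6-OHG against Con 1 of these 10 fell and 0 rose, where 14.4% of all genes tested fell and 16.3% rose. The median of these markers was -0.35 beside 0.0034 over all genes, and their part in the Slc32a1 difference was not tested. Gad1, a GABA-synthesizing enzyme gene, had 51.8 ± 7.01, 46.3 ± 6.40 and 45.7 ± 6.65 FPKM in Con, Mod and 6-OHG. The median of the 8 was -0.18 between Mod and Con, -0.0038 between 6-OHG and Mod and -0.13 between 6-OHG and Con. The chloride transporter genes Slc12a5 and Slc12a2, which set the driving force of these channels, were not called by limma in any comparison. Of them 1, 0 and 0 had an unadjusted p under 0.05, where 23.8%, 15.3% and 30.7% of all genes tested were called. Slc12a5 came near in Mod against Con (-0.18, adjusted p = 0.0532).

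The metabotropic GABA-B receptor, which acts through G proteins, had 5 genes tested, with medians of -0.28, 0.11 and -0.074 in the 3 comparisons. The shares of all genes tested that were called in them were 23.8%, 15.3% and 30.7%. In Mod against Con, Gabbr1 fell (-0.17, adjusted p = 0.0277, held in 19 of 27 settings) and Kctd8 rose (0.33, adjusted p = 0.0407, held in 13 of 26). In 6-OHG against Mod, Kctd16, an auxiliary subunit gene, rose from 2.48, 2.58, 2.29, 3.02 and 1.09 FPKM in Mod to 6.26, 3.79, 5.67 and 6.72. Its groups did not overlap, 6-OHG 2 being the lowest of the treated libraries, and the difference was 1.02 (SE 0.19, adjusted p = 0.00489), held in 25 of 26 settings. In 6-OHG against Con, limma called 0 of the 5 and 2 had an unadjusted p under 0.05, with Kctd16 at 0.54 (adjusted p = 0.0583).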

How the data were processed

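The authors deposited 1 table of FPKM with a column for each library. Builds GRCm38 and mm10 and, among others, the aligner HISAT2 2.2.1, the assembler StringTie 2.1.6 and the counter featureCounts 1.5.0-p3 appear in the submitters' processing notes, which do not say which made the values. The annotation release, the strand setting and filters are not given in the sources used here. Positions and exon lengths are from GENCODE M21 on GRCm38, and 37499 of 37636 gene IDs had a symbol. For genes with a single transcript, a step was taken per library as the most frequent low value of FPKM times exon length. Within 0.01 of a whole multiple of that step lay 5.95% to 8.52% of low values, against 1.45% to 1.71% for other steps. Reads were therefore not recovered, depth is unknown and no counting error is given.

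Values were log2(FPKM + 1) for the 13905 genes whose mean reached 1 FPKM. A mean per group was fitted over all 13 libraries in limma 3.58.1 (R 4.3.3) with trended moderation and Benjamini-Hochberg adjustment over all genes. On simulated data this recovered 64% to 82% of log2 changes of 0.5 in either direction and 88% to 98% of changes of 1. The simulation drew independent normal noise for each gene and changed 50 genes per size and direction, all above about 5 FPKM. Tissue make-up shared between genes and the length trend were not part of it, so these rates need not hold for the real libraries. The 27 other settings changed the pseudocount (0.1), the filter (none, or 5 FPKM), the scaling (equal sums, median of ratios, quantile), the trend on exon length and GC content, the replicate block (with and without that trend removed), the moderation, the sample weights or the groups fitted, or left out each library in turn. A striatum term and leaving out Con 4 and 6-OHG 2 together were added after the data were seen. The subunit genes and lists were chosen with earlier results of these data known. All 7 subunit genes are named, with other subunit genes, up to 4 genes of each pathway list by smallest p, and for each of the 7 the 3 nearest profiles, from which the text selects. Results that need certain other genes are not reported here. Gabrr2 was singled out after its values were seen. Figures used matplotlib 3.10.9 under Python 3.11.15.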

Additional observations from a re-analysis of the deposited data

Results flagged for a closer look

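Gabra2 in 6-OHG 4 stood far from the rest of its group, at 15.0 FPKM against 8.87 to 9.66 in the other 3 libraries, with a gap to the nearest of 0.872 of the whole range. It was the only value so marked among 21 groups of values (7 genes in 3 groups), where chance marks about 1 in 20 groups.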

How the results depend on the processing

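The number of the 7 genes called was 2 in Mod against Con, and 4 with sample weights. In 6-OHG against Mod it was 1, and 1 to 2 with a library left out, the 2 arising without 6-OHG 1. In 6-OHG against Con it was 2, 1 with equal sums or with only the compared groups, and 3 with the trend of length and GC removed, without Con 4 or without 6-OHG 4. Every other setting run left these counts as they were. Gabrb1 and Gabrb2 kept their direction in every setting and comparison.

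Signs turned only for genes short of the threshold, and the cause was not tested. In Mod against Con, Gabra4 gave 0.021 with the replicate block, 0.029 with the block and the length and GC trend removed, 0.076 with the striatum term and -0.21 to 0.069 with a library left out. Gabra5 gave -0.11 to 0.062 with a library left out.

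In 6-OHG against Mod, Gabra2 gave 0.021 with equal sums, 0.030 with weights, 0.0016 without both Con 4 and 6-OHG 2 and -0.23 to 0.0016 with a library left out. Gabra4 gave -0.068 with the trend removed, -0.042 with the block, -0.13 with both and -0.12 to 0.24 with a library left out. Gabra5 gave -0.055 to 0.12 in that way. Gabrd gave 0.0066 with weights, 0.078 with the striatum term, 0.22 without both libraries and -0.40 to 0.22 with a library left out.

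In 6-OHG against Con, Gabra3 gave 0.024 with quantile normalization. Gabra4 gave 0.0062 with equal sums, 0.030 with quantile normalization, 0.013 with weights, 0.22 with the striatum term, 0.034 without both libraries and -0.19 to 0.20 with a library left out. Gabra5 gave -0.021 with median of ratios, -0.0071 with the trend removed with or without the block, -0.040 with weights, -0.064 with the striatum term, -0.092 without both libraries and -0.060 to 0.065 with a library left out.

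Over all genes, calls in Mod against Con went from 3304 to 2061 with the 5 FPKM filter, 2039 with the replicate block and 2159 with the block and the trend removed. In 6-OHG against Mod they went from 2131 to 929 with the trend removed, 846 with the block, 33 with both and 1357 without 6-OHG 4, and in 6-OHG against Con from 4268 to 2663 with the 5 FPKM filter. Libraries with the same number correlated at -0.48 to 0.35 in their deviations from group means. The same number was the closest match for number 2 in Mod against Con (0.35, against at most 0.21 for other numbers). It was also closest for number 4 in 6-OHG against Mod (0.19 against 0.17), and not in the other pairs. Differences in tissue make-up enter these correlations, so a shared batch cannot be told from them. The block changed no call among the 7 genes. Kctd8 and Kctd16 are below the 5 FPKM filter and have 26 settings. Depth is unknown, and groups of 4 or 5 libraries limit what can be called for Gabrd, Gabra4 and Gabra2.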
